A study of Mus musculus with 192 samples.

Results

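The cytoplasmic RNA of mouse embryonic stem cells (mESCs) was followed over the first 6 h of retinoic acid (RA) differentiation. The comparison used 6 of the 192 libraries of the series, chosen by their labels alone: 3 cytoplasmic libraries at 6 h and 3 at 0 h, from the differentiation runs 5, 6 and 7. E14 cells, a wild-type line derived from the 129/Ola mouse strain, were grown in 2i medium, which holds the MEK inhibitor PD0325901 (1 µM), the GSK3 inhibitor CHIR99021 (3 µM) and the cytokine LIF (1000 U/ml), with extra insulin. The 0 h cells were taken from this medium. The 6 h cells had been washed and given N2B27, a serum-free basal medium, with 0.25 µM all-trans RA and without both inhibitors, LIF or the extra insulin. RA was thus added at the moment when 2i, LIF and insulin were withdrawn, and no group received N2B27 alone, so that the effect of RA and the effect of the withdrawal cannot be told apart in any value below. Nuclear and cytoplasmic RNA were separated from the same cells with a column kit, and poly(A) RNA was sequenced as 150 bp read pairs. One cell line was used, and each run was a separate differentiation.

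RA enters the nucleus and binds the RA receptors (RARs), which sit with a retinoid X receptor (RXR) on pairs of hexamers in the DNA and turn on nearby genes, among them Cyp26a1, whose product degrades RA. The components of 2i act on other pathways. PD0325901 blocks MEK, the kinase that activates ERK, and so holds down ERK target genes. CHIR99021 blocks GSK3, which stabilises beta-catenin and keeps TCF/LEF target genes of the WNT pathway on, while LIF activates STAT3. In mESCs these signals hold the naive pluripotent state, which the cells leave through a formative state before they choose a lineage.

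The 3 cytoplasmic libraries at 6 h held 16577823 (run 5), 9466433 (run 6) and 9914282 (run 7) counts, against 11657945, 10485172 and 17605948 at 0 h. The 6 h library of run 5 stood apart: 333 of the 10957 genes tested had no count in it, against 20 to 60 in the other 5 libraries, and 108 of these had at least 10 counts in both other 6 h libraries. Results that rest on it are given with and without it. Levels are CPM, counts scaled to the library total and by TMM factors, changes are log2 fold changes of 6 h over 0 h with their standard error (SE), and a gene was said to rise or fall when its adjusted p was under 0.05. The deposited tables list no gene on chromosomes 7, 8, 9, X or Y, so that members of each pathway on those chromosomes were not analysed here. The 8 markers of embryonic stem cells were all present, with a summed level of 6140 to 6340 CPM at 6 h and 6220 to 6310 CPM at 0 h.

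The labelled fraction was checked against transcripts that normally remain nuclear. Malat1, a long noncoding RNA of nuclear speckles, had 400, 517 and 517 CPM in the cytoplasmic libraries at 6 h and 465, 492 and 536 CPM in the nuclear ones. At 0 h it had 314, 371 and 367 CPM in the cytoplasmic libraries, against 665, 588 and 767 CPM in the nuclear ones. Nuclear RNA was therefore present in the cytoplasmic libraries at both times, and at 6 h the Malat1 levels of the fractions overlapped. Neat1, Malat1, Meg3 and Airn together had 984 to 1110 CPM at 6 h and 757 to 806 CPM at 0 h in cytoplasmic RNA. The part that nuclear RNA has in the results below was not tested.

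Sequence elements of the RAR and TCF/LEF factors are shown here for some of the genes named below. They were searched in the RefSeq promoter windows of GRCm38.p6, which run 250 bases before to 50 bases after a start site. The RAR elements searched were direct repeats with 5 bases (DR5) or 2 bases (DR2) between the hexamers. Each hexamer could be AGGTCA, which nuclear receptors prefer, or one of its known variants. These were AGTTCA, which both hexamers of the Cyp26a1 repeat have, and GGGTCA, which both hexamers of the Tinagl1 repeat have. The last variant was GGTTCA, the first hexamer of the Rarb repeat. The TCF/LEF elements were CTTTGAT and CTTTGAA. Both strands were searched for every element. A DR5 was found in 0.115% of all promoters and a DR2 in 0.311%. Among 7922 tested genes with a window, 4 held a DR5: Cyp26a1, which rose, and Rarb, Syndig1 and Gm4631, which did not pass the test. A DR2 was found in 11, of which Slc7a7, Tinagl1 and Gm6712 rose, 8 did not pass and 0 fell; the call of Gm6712 was lost when any of 4 of the 6 libraries was left out (for example 0.91, adjusted p = 0.12, without the 6 h library of run 5). The windows below are written 5′ to 3′ along the strand that carries the element, with both hexamers and their spacer, or the TCF/LEF element, in capitals.
Cyp26a1 DR5, chr19:37697770-37697799: acaaattAGTTCACCCAAAGTTCAtcttta
Rarb DR5, chr14:16575506-16575535: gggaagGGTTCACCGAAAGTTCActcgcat
Slc7a7 DR2, chr14:54418163-54418192: agacatgaGGGTCAGAAGTTCAaagtcatt
Tinagl1 DR2, chr4:130175208-130175237: ccagcccaGGGTCACTGGGTCAaggatgtg
Sp5 CTTTGAT, chr2:70474808-70474837: ggcaaggccccCTTTGATcaggaaaatcca
Tnfrsf19 CTTTGAT, chr14:61038171-61038200: tctagtttgtcaCTTTGATcccccattcag
Dkk1 CTTTGAA, chr19:30549595-30549624: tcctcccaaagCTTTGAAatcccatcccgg

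The elements of Cyp26a1, Slc7a7 and Tnfrsf19 lie on the strand opposite to their gene, and the other elements read along the gene. The DR5 of Cyp26a1 spans bases -32 to -16 from the start site and that of Rarb bases -53 to -37. CTTTGAT was present in 4.29% of all promoters and in 2.79% of those of genes tested. It was in 2.63% of those of genes that rose and 3.21% of those of genes that fell. For CTTTGAA the shares were 5.93%, 4.17%, 3.98% and 5.04%. Of 15 windows of the WNT list below, 2 held CTTTGAT (Sp5 and Tnfrsf19) and 2 held CTTTGAA (Dkk1 and T, which did not pass the test). Of 17 windows of the RA target genes below, 2 held a DR5 (Cyp26a1 and Rarb) and 0 a DR2. Such a match is a description and was not tested for binding.

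At 6 h, 1780 of the 10957 genes tested had risen in cytoplasmic RNA (16.2%) and 2045 had fallen (18.7%), 34.9% in all. Each count of a gene list in cytoplasmic RNA below is to be read beside these shares. Over 2-fold changes were called for 522 genes that rose (4.76%) and 769 that fell (7.02%), and the 3 libraries at 6 h lay wholly above or below the 3 at 0 h for 4697 genes (42.9%). The median log2 change was -0.04 over all genes tested, 0.59 over those that rose and -0.74 over those that fell. Of the called genes, 1719 that rose and 2018 that fell moved in the called direction in all 3 runs. Leaving out run 5 at 6 h gave 1701 rises and 1931 falls, of which 1408 and 1639 were among those above. Of the 769 genes with over 2-fold falls, 172 (22.4%) had no count in that library, against 19 in run 6 and 34 in run 7.

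The RA machinery moved one way within 6 h. Of 15 tested genes for receptors, coregulators and enzymes of RA, 8 rose and 0 fell, with a median log2 change of 0.39, while Rarb, an early RA target in many cells, did not pass the test. Cyp26a1 had 15.1, 8.84 and 9.65 CPM at 6 h, against 0.54, 0.20 and 1.07 CPM at 0 h, a log2 change of 4.07 ± 0.33 (SE; adjusted p = 2.46e-09). All 3 libraries at 6 h were above all at 0 h, and the change was 4.89 without the 0 h library of run 7. The receptor gene Rarg had 388, 396 and 395 CPM at 6 h, against 86.9, 116 and 101 CPM at 0 h (1.96 ± 0.09). Rara, another receptor, had 77.1, 66.0 and 57.9 CPM at 6 h and 35.1, 36.4 and 39.1 CPM at 0 h (0.86 ± 0.10). The groups did not overlap for either receptor. Rarb, in contrast, had 15.8, 14.9 and 17.9 CPM at 6 h, against 12.5, 13.4 and 16.8 CPM at 0 h (0.17 ± 0.17, adjusted p = 0.485), and its groups overlapped. The RXR genes Rxra and Rxrb did not pass the test either (0.02 ± 0.09 and 0.15 ± 0.11).

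Among proteins that handle RA, Crabp2, which carries RA to the nucleus, had 9.42, 2.87 and 4.03 CPM at 6 h, against 1.70, 1.10 and 1.90 CPM at 0 h. It rose by 1.86 ± 0.34, and by 1.09 without the 6 h library of run 5, in which it was highest. Dhrs3, a retinal reductase, rose by 0.98 ± 0.29, while Rdh10, which makes retinal, did not pass the test (0.03 ± 0.21). Of the coregulators, the coactivator genes Ncoa2 and Ncoa3 rose by 0.54 ± 0.13 and 0.75 ± 0.09, and the corepressor gene Ncor1 rose by 0.39 ± 0.10. Coactivators and corepressors thus moved the same way.

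Genes described elsewhere as RA targets did not move as a group: of 27 tested, 7 rose and 8 fell, with a median log2 change of -0.06. Without the 6 h library of run 5, 8 rose and 6 fell. Besides Cyp26a1, Crabp2 and Dhrs3, those that rose were Foxd3 (1.59 ± 0.27), Hoxa5 (1.35 ± 0.28), Meis2 (1.08 ± 0.14) and Tgif1 (0.66 ± 0.06). Meis2, which encodes a cofactor of HOX proteins, had 79.9, 77.6 and 92.4 CPM at 6 h, against 35.3, 40.1 and 42.2 CPM at 0 h. Stra8, an RA-induced gene of germ cells that enter meiosis, had 223, 163 and 151 CPM at 6 h and 169, 166 and 179 CPM at 0 h (0.06 ± 0.22), and its groups overlapped. Those that fell included Cdx1, which the WNT list below also holds, Tshz1 (-2.25 ± 0.23), a zinc finger gene, and Tgm2, a transglutaminase (-2.75 ± 0.36, or -2.15 without the 6 h library of run 5).

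The Hox genes, which set position along the body axis, were lower or did not pass the test, with 1 exception. Of 26 tested among the 39 listed, 1 rose and 10 fell, with a median log2 change of -0.62. Hoxb9 had 8.98, 10.3 and 10.7 CPM at 6 h and 21.8, 22.9 and 21.8 CPM at 0 h (-1.16 ± 0.20). Hoxa5, which rose, had 8.47, 7.52 and 3.60 CPM at 6 h, against 2.87, 3.11 and 2.07 CPM at 0 h. Most other Hox genes had levels of a few CPM. Hoxc8 and Hoxb7 had no count in the 6 h library of run 5, and without it their changes were -2.29 and -2.19 in place of -3.11 and -3.01. The fall of Hoxc11 (-2.37) lost its call when any of 5 of the 6 libraries was left out (adjusted p = 0.0547 to 0.0731, with a change of -1.64 without the 6 h library of run 5), with DESeq2 (adjusted p = 0.121) and without the filter on low counts (0.106). Without the 6 h library of run 6 the change of Hoxb7 was -4.08. With the 6 libraries fitted alone, 5 Hox genes fell, and Hoxc8, Hoxb7 and Hoxc11 lost their calls (adjusted p = 0.0551, 0.0626 and 0.122). Without the 0 h library of run 7, 6 Hox genes fell.

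ERK feedback and delayed-response genes were mostly higher. Of 22 tested, 15 rose and 4 fell, with a median log2 change of 0.67. Spry4, which encodes an inhibitor of receptor tyrosine kinase signalling (chromosome 18, 38586247 to 38601415, minus strand), had 153, 173 and 184 CPM at 6 h, against 1.88, 0.70 and 0.83 CPM at 0 h (7.24 ± 0.20, adjusted p = 3.61e-17). It was nearly undetected in 2i and reached like levels in all 3 runs. Dusp6, the phosphatase that switches ERK off, had 120, 128 and 146 CPM at 6 h, against 5.46, 8.12 and 9.47 CPM at 0 h (4.07 ± 0.14). Etv4, an ETS transcription factor gene, had 202, 187 and 214 CPM at 6 h, against 22.9, 18.6 and 19.8 CPM at 0 h (3.30 ± 0.10). No groups overlapped for these genes.

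Members of the same families differed. Etv1 rose by 2.65 ± 0.16, while Etv5 had 471, 539 and 578 CPM at 6 h and 494, 457 and 471 CPM at 0 h (0.16 ± 0.08), which passed the test only without the 6 h library of run 5 (0.24, adjusted p = 0.0189). Among the Sprouty genes, Spry1 rose by 1.00 ± 0.22. Spry2, with 136, 133 and 152 CPM at 6 h and 110, 113 and 105 CPM at 0 h, rose by 0.36 ± 0.13, a call that was lost when any of 5 of the 6 libraries was left out. The related Spred1 and Spred2 rose by 1.01 ± 0.10 and 0.81 ± 0.08. Further rises were seen for the ERK phosphatase gene Dusp5 (2.29 ± 0.21), Phlda1 (2.28 ± 0.19) and the ephrin receptor gene Epha2 (1.46 ± 0.11). The falls were Dusp14, Epha4, Errfi1 and Flrt3, between -1.25 and -0.63. Flrt3 lost its call without the 6 h library of run 5 (-0.32, adjusted p = 0.248) and without the 0 h library of run 5 or run 6 (-0.60 and -0.57).

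**Figure D1:**
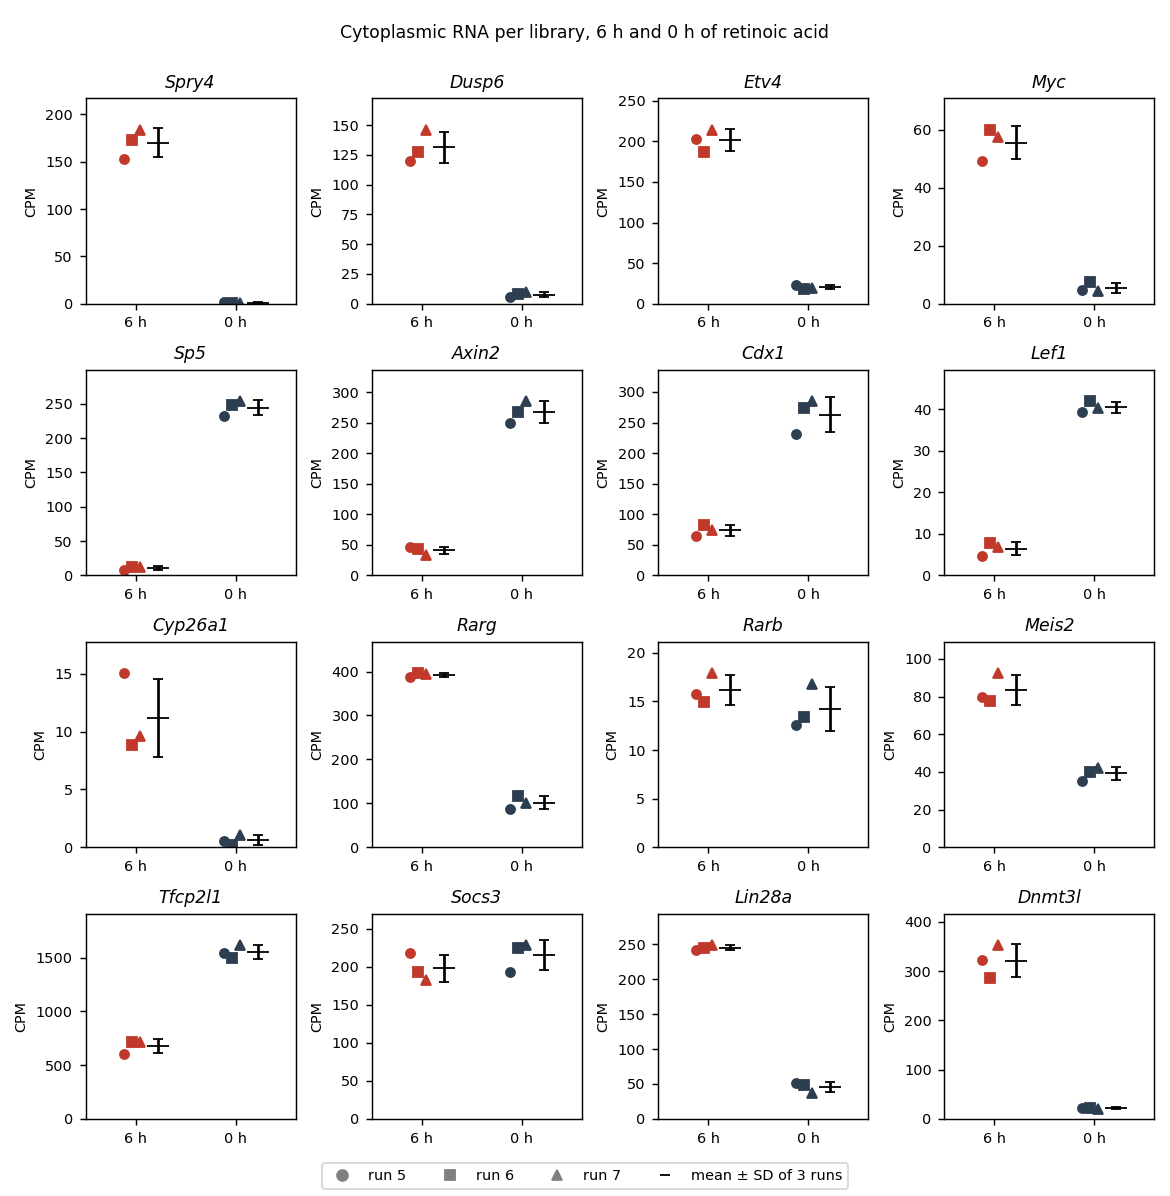
Levels of 16 genes in cytoplasmic RNA, in CPM on a linear axis that starts at 0, with the 3 libraries at 6 h on the left and the 3 at 0 h on the right of each panel; symbols give the run, and the bars the mean and SD of 3 runs. All 3 libraries at 6 h were far above those at 0 h for Spry4, Dusp6, Etv4 and Myc and below them for Sp5, Axin2, Cdx1 and Lef1, while Rarb and Socs3 overlapped.

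The immediate-early genes, which ERK turns on within minutes of a stimulus and which mostly fade within hours, were split: 9 of 21 tested rose and 7 fell, with a median log2 change of -0.17. Myc, a growth regulator, had 49.3, 60.0 and 57.6 CPM at 6 h, against 4.75, 7.42 and 4.32 CPM at 0 h (3.36 ± 0.18). Egr1, a zinc finger transcription factor gene, had 38.4, 34.6 and 35.4 CPM at 6 h, against 10.6, 12.2 and 4.97 CPM at 0 h (2.00 ± 0.23). Trib1 rose by 1.88 ± 0.13 and Plk3 by 1.12 ± 0.14. Fos, a partner in the AP-1 factor, had 8.73, 6.85 and 5.41 CPM at 6 h and 8.33, 7.22 and 8.17 CPM at 0 h (-0.17 ± 0.29). The AP-1 gene Jun fell by 0.55 ± 0.20, and so did Atf3 (-1.34 ± 0.19) and Klf10 (-1.33 ± 0.11). The call of Jun was lost when any of 4 of the 6 libraries was left out, and its change was -0.31 (adjusted p = 0.204) without the 6 h library of run 7. Fosl2 fell to 0, 1.22 and 0.42 CPM at 6 h, against 1.88, 3.11 and 2.90 CPM at 0 h. Its fall was 2.51, or 1.69 without the 6 h library of run 5 and 3.95 without that of run 6. Its call was lost with the 6 libraries fitted alone (adjusted p = 0.134). With the run as a block in that fit, Fosl2 and Atf3 both lost their calls (adjusted p = 0.0722 and 0.0664). A CArG box, the element of the factor SRF, was found in the window of 1 of 16 immediate-early genes, Srf itself, which rose by 0.37 ± 0.07.

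WNT targets and feedback genes fell. Of 21 tested, 11 fell and 2 rose, with a median log2 change of -0.93. Sp5, a transcription factor gene that TCF/LEF factors turn on (chromosome 2, 70474923 to 70477729, plus strand), had 8.04, 12.4 and 12.6 CPM at 6 h, against 232, 248 and 253 CPM at 0 h (-4.49 ± 0.17, adjusted p = 5.88e-15). Axin2, a feedback inhibitor of the pathway, had 46.0, 42.9 and 33.9 CPM at 6 h, against 249, 267 and 285 CPM at 0 h (-2.70 ± 0.12). Lef1, itself a TCF/LEF factor, had 4.71, 7.85 and 6.89 CPM at 6 h, against 39.3, 41.8 and 40.1 CPM at 0 h (-2.66 ± 0.24). These genes did not overlap between the groups.

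The homeobox genes Cdx1 and Cdx2 fell too. Cdx1 had 64.7, 82.3 and 74.3 CPM at 6 h, against 231, 273 and 284 CPM at 0 h (-1.84 ± 0.19), although it is also listed among RA targets. Cdx2 had 0, 0.99 and 1.17 CPM at 6 h, against 26.2, 31.2 and 27.4 CPM at 0 h, and fell by 5.46 ± 0.56, by 4.69 without the 6 h library of run 5 and by 6.14 without that of run 7. Of the genes whose TCF/LEF element is printed above, Tnfrsf19, a receptor of the tumour necrosis factor family, fell by 1.37 ± 0.14 and Dkk1, a secreted WNT inhibitor, by 2.48 ± 0.39. Tcf7 fell by 0.93 ± 0.09. Rnf43, a ubiquitin ligase that removes WNT receptors, had 4 counts at 6 h in all, against 403 at 0 h, while its relative Znrf3 had 25, 31.9 and 32.8 CPM at 6 h and 32.1, 41.5 and 38.7 CPM at 0 h (-0.33 ± 0.15, adjusted p = 0.0929, or -0.43 and 0.0467 without the 0 h library of run 5). The ligand Wnt3 had 2 counts at 6 h, against 62 at 0 h, and its level at 0 h was 28.1 times that at 6 h (95% interval 7.45 to 237, counting error only). The 2 rises were Evx1, a homeobox gene of the primitive streak, with 6.91, 4.42 and 4.56 CPM at 6 h and 0, 0.50 and 0.12 CPM at 0 h (4.74 ± 0.86, or 6.07 without the 0 h library of run 6), and Kremen1, which binds DKK1 (0.37 ± 0.11). Kremen1 lost its call without the 6 h library of run 5 (0.20, adjusted p = 0.123) or the 0 h library of that run (0.33, adjusted p = 0.0537). T, which marks early mesoderm and holds a CTTTGAA in its window, did not pass the test (-0.88 ± 0.49).

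LIF and STAT3 genes were divided, with 6 of 27 rising and 8 falling and a median log2 change of -0.11. Socs3, the feedback inhibitor that STAT3 turns on, had 218, 193 and 183 CPM at 6 h, against 193, 225 and 229 CPM at 0 h (-0.12 ± 0.12, adjusted p = 0.469), with overlapping groups. Tfcp2l1, a naive factor downstream of both LIF and WNT, had 600, 713 and 716 CPM at 6 h, against 1546, 1494 and 1620 CPM at 0 h (-1.20 ± 0.12). Osm, a cytokine of the LIF family, had 6.34, 5.75 and 4.45 CPM at 6 h, against 37.9, 42.6 and 42.2 CPM at 0 h (-2.88 ± 0.32). The shared receptor chain gene Il6st fell by 0.82 ± 0.12 and Stat3 by 0.27 ± 0.06, whereas Lifr passed the test only with DESeq2 (0.33, adjusted p = 0.0475) or without the 6 h library of run 5 (0.50, adjusted p = 0.0033). Klf4 fell by 0.56 ± 0.12. The rises were Cebpd, Noct, Pim3, Jak2, Tbx3 and Socs2, between 0.65 and 1.83. Jak2 lost its call with the 6 libraries fitted alone (adjusted p = 0.0569). None of the 20 windows of this list held the STAT element TTCCNGGAA, found in 1.35% of all promoters and 1.6% of those of genes tested.

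Of the core pluripotency genes, none of 6 fell. Pou5f1, which encodes OCT4, had 2129, 1874 and 1757 CPM at 6 h, against 1383, 1516 and 1368 CPM at 0 h (0.43 ± 0.11). Nanog had 765, 778 and 861 CPM at 6 h and 1003, 884 and 911 CPM at 0 h (-0.22 ± 0.13, adjusted p = 0.202), and Sox2 did not pass either (0.20 ± 0.09, adjusted p = 0.0761), although it did with the run as a block (adjusted p = 0.0358) or without the 6 h library of run 7 (0.27, adjusted p = 0.0292). Lin28a, an RNA-binding protein gene that is low in the naive state, had 242, 244 and 249 CPM at 6 h, against 50.9, 49.1 and 37.4 CPM at 0 h (2.43 ± 0.08). Sall4 rose by 0.63 ± 0.08.

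Naive genes did not move together: 11 of 26 rose and 8 fell, with a median log2 change of 0.08. Dppa3, also called Stella, which guards DNA methylation marks in the egg, had 29.9, 18.1 and 21.3 CPM at 6 h, against 109, 96.5 and 87.9 CPM at 0 h (-2.07 ± 0.28). Prdm14, Gbx2 and Klf4 fell less, by 0.57, 0.84 and 0.56. Esrrb, a target of GSK3 inhibition, had 987, 1014 and 1035 CPM at 6 h and 932, 933 and 969 CPM at 0 h (0.10 ± 0.11, adjusted p = 0.51). All 3 values at 6 h were above those at 0 h, a difference that did not pass the test. Dppa2 and Dppa4, a pair of chromatin factors, rose by 1.26 ± 0.10 and 1.59 ± 0.09, and Zfp57, which protects imprints, rose by 1.68 ± 0.06.

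Formative and primed genes rose. Of 22 tested, 15 rose and 2 fell, with a median log2 change of 1.14, and the same counts were found without the 6 h library of run 5. Otx2, a transcription factor gene of the formative state, had 9.17, 6.41 and 6.47 CPM at 6 h, against 0.54, 1.00 and 0.65 CPM at 0 h (3.35 ± 0.55). Pou3f1, also called Oct6, rose by 2.76 ± 0.37 and Sox11 by 2.16 ± 0.24. Tcf15, a factor of cells primed to leave the naive state, had 41.9, 39.0 and 43.7 CPM at 6 h, against 5.46, 6.92 and 6.04 CPM at 0 h (2.76 ± 0.16). The zinc finger gene Zic2 had 170, 159 and 160 CPM at 6 h, against 47.6, 50.2 and 49.7 CPM at 0 h (1.73 ± 0.11). None of these groups overlapped. The falls were Lef1 and Grhl2, an epithelial factor gene (-1.23 ± 0.23).

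Of the DNA methylation enzymes, 5 of 8 rose and 0 fell, with a median log2 change of 0.61. This list shares genes with those above: Dnmt3a and Dnmt3b are also formative list members, and Dnmt3l and Tet1 naive list members. Dnmt3l, which stimulates the de novo methyltransferases, had 323, 287 and 354 CPM at 6 h, against 22.7, 22.2 and 19.1 CPM at 0 h (3.92 ± 0.13). The methyltransferases themselves changed less: Dnmt3b rose by 0.69 ± 0.09 and Dnmt3a by 0.54 ± 0.10. Of the TET enzymes, which oxidise methylated cytosine, Tet1 had 492, 725 and 764 CPM at 6 h, against 333, 369 and 361 CPM at 0 h (0.90 ± 0.17), whereas Tet2 and Tet3 did not pass (0.07 ± 0.12 and -0.27 ± 0.18), although Tet3 did without the 6 h library of run 7 (-0.49, adjusted p = 0.0499). Among 26 Polycomb genes, which silence developmental regulators through histone marks, 8 rose and 6 fell. The core subunits Ezh2 and Suz12 did not pass the test (0.01 ± 0.07 and -0.09 ± 0.08). Jarid2, an accessory subunit, had 1014, 970 and 1030 CPM at 6 h, against 411, 406 and 425 CPM at 0 h (1.28 ± 0.07), and the accessory gene Phf19 had 9.86, 12.0 and 14.6 CPM at 6 h, against 0.36, 0.90 and 0.36 CPM at 0 h (4.55 ± 0.31). The chromodomain genes Cbx7 and Cbx6 rose by 1.08 ± 0.10 and 0.95 ± 0.08.

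In the TGF-beta family, 7 of 21 tested genes rose and 4 fell, with a median log2 change of 0.18. The rises were the ligand genes Inhbb, Bmp4, Bmp2 and Nodal, the BMP targets Id1 and Id3, and Smurf1, a ubiquitin ligase of the pathway. The falls were Msx1, Fst, Id4 and Lefty2. The change of Msx1 was -2.65 ± 0.48 at low levels, or -3.97 without the 6 h library of run 5. That of Fst was -1.245 ± 0.312, or -0.80 without the same library. Inhbb, which encodes a subunit of activin B, had 69.5, 64.3 and 63.1 CPM at 6 h, against 2.78, 2.91 and 3.43 CPM at 0 h (4.41 ± 0.21). Bmp4 had 102, 95.4 and 104 CPM at 6 h, against 19.0, 23.7 and 16.8 CPM at 0 h (2.35 ± 0.17). Bmp2 rose by 2.98 ± 0.38 at low levels and Nodal by 1.05 ± 0.10. Of the ID genes, which BMP turns on and which block differentiation factors, Id3 had 60.3, 66.7 and 72.8 CPM at 6 h, against 7.43, 6.92 and 4.62 CPM at 0 h (3.42 ± 0.22), and Id1 rose by 3.39 ± 0.25. Id4 fell by 1.01 ± 0.20 and Id2 did not pass (-0.79 ± 0.36), but did without the library of run 7 at 6 h (-1.09, adjusted p = 0.044) or at 0 h (-1.05, adjusted p = 0.0366). Smurf1 lost its call without the 0 h library of run 5 (0.30, adjusted p = 0.0684). Lefty2, a NODAL inhibitor, had 0.69, 11.9 and 7.42 CPM at 6 h, against 16.3, 21.4 and 17.3 CPM at 0 h, a fall of 1.52 ± 0.54. Its change was -0.92 (adjusted p = 0.094) without the 6 h library of run 5 and -2.30 without that of run 6. The call was lost without the first of these, without the 6 h library of run 7 (adjusted p = 0.0558), without the 0 h library of run 6 (0.088) or run 7 (0.056), and with DESeq2 (0.056).

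**Figure D2:**
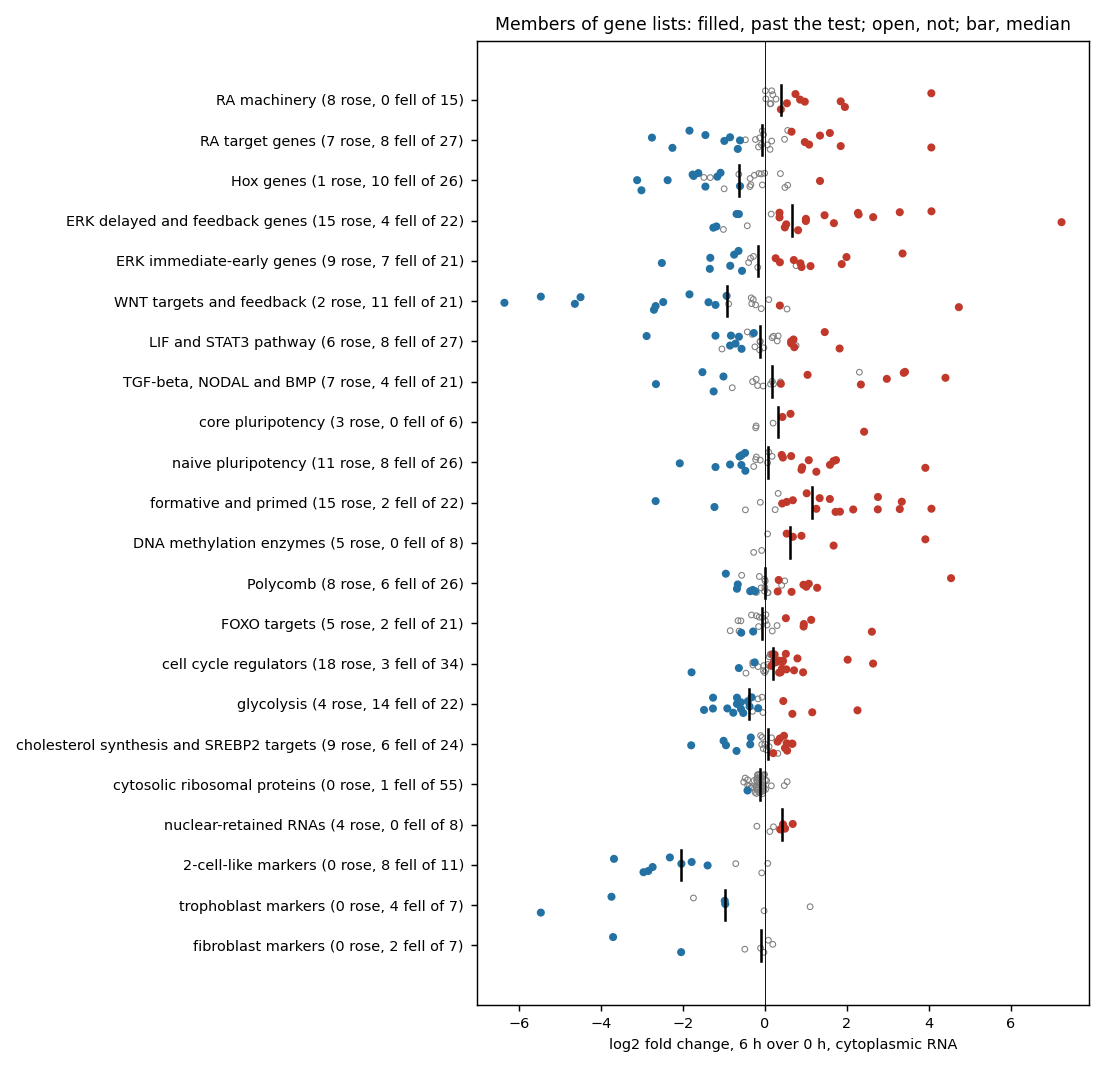
Log2 fold change of 6 h over 0 h in cytoplasmic RNA for the tested members of 22 gene lists; filled points passed the test, open points did not, and each bar is the median of the list. ERK feedback genes and formative genes lie mostly to the right (15 of 22 rose in each), WNT targets to the left (11 of 21 fell), and ribosomal protein genes close to 0.

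Cell cycle genes were higher, with 18 of 34 rising and 3 falling and a median log2 change of 0.21. Cdkn1a, the gene of the cell cycle inhibitor p21, had 146, 130 and 124 CPM at 6 h, against 471, 443 and 466 CPM at 0 h (-1.78 ± 0.10). E2f2 had 38.1, 50.2 and 43.9 CPM at 6 h, against 8.60, 5.92 and 6.57 CPM at 0 h (2.64 ± 0.14), and Cdc20, which starts anaphase, rose by 0.94 ± 0.08. Cyclin D2, from Ccnd2, rose by 2.02 ± 0.27 and cyclin D3, from Ccnd3, by 0.72 ± 0.07. Other p53 targets were fewer: of 14 tested, Cdkn1a, Phlda3 and Plk2 fell and Sesn2 rose, while Mdm2 had 273, 257 and 259 CPM at 6 h and 253, 259 and 268 CPM at 0 h (0.01 ± 0.06). With the run as a block, 5 p53 targets and 6 cell cycle genes fell. Without the 6 h library of run 7, 5 cell cycle genes fell.

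Glycolysis genes were lower, with 14 of 22 falling and 4 rising and a median log2 change of -0.39. Tpi1, triosephosphate isomerase, had 182, 178 and 171 CPM at 6 h, against 437, 423 and 416 CPM at 0 h (-1.26 ± 0.11). The exceptions were Pdk1, Pfkp, the glucose carrier gene Slc2a1 and Hk2. Pdk1, a pyruvate dehydrogenase kinase gene, had 163, 198 and 194 CPM at 6 h and 39.1, 36.0 and 40.1 CPM at 0 h (2.26 ± 0.10). Pfkp rose by 1.16 ± 0.08, Slc2a1 by 0.68 ± 0.08 and Hk2 by 0.45 ± 0.07. Of 24 genes of cholesterol synthesis and SREBP2 control, 9 rose and 6 fell. The rises were enzymes of sterol synthesis such as Sqle (0.68 ± 0.07) and Hmgcs1 (0.66 ± 0.07), and Srebf2, while the falls included the sterol exporters Abca1 (-0.94 ± 0.14) and Abcg1 (-1.79 ± 0.33) and the fatty acid enzymes Fasn and Scd2 (-0.69 ± 0.10 and -1.0 ± 0.10). Of 21 targets of FOXO, the factors that insulin signalling holds out of the nucleus, 5 rose and 2 fell. Gadd45a had 58.3, 52.3 and 51.7 CPM at 6 h, against 11.1, 8.22 and 7.40 CPM at 0 h (2.62 ± 0.20), whereas Txnip did not pass (0.06 ± 0.09). The call of Srebf2 was lost when any of 4 of the 6 libraries was left out (0.15 to 0.20).

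Ribosomal protein genes summed to 42300 to 65100 CPM at 6 h and 45700 to 62800 CPM at 0 h. This spread between runs was too wide for the genes to serve as a check on scaling. Of 55 tested, 1 fell and 0 rose, with a median log2 change of -0.11. Their short mRNAs differed more between runs than between times: Rps29 had 282, 48.9 and 41.8 CPM at 6 h in runs 5, 6 and 7, against 389, 89.6 and 48.3 CPM at 0 h, and was highest in run 5 at both times. It was lower at 6 h in all 3 runs. Its change (-0.48 ± 0.83) did not pass the test, and was -1.95 without the 6 h library of run 5 and 0.87 without the 0 h library of that run. With the 6 libraries fitted alone and the run as a block it passed (-0.49, adjusted p = 0.022), and 10 ribosomal protein genes fell. Without the 6 h library of run 5, 5 ribosomal protein genes fell. The small lists that follow stand beside 16.2% of all genes tested that rose and 18.7% that fell. Of 24 ATF4 targets 3 rose and 6 fell, of 12 heat shock genes 2 rose (1 without the 6 h library of run 5 or the 0 h library of run 7) and 3 fell, and of 12 cytoskeletal targets of SRF and YAP 6 rose, among them Actb (0.62 ± 0.07) and Lats2 (1.83 ± 0.11), and 3 fell, or 1 without the 6 h library of run 6 or the 0 h library of run 7. Of 32 nucleolar genes 2 rose, Myc and Nop58, and 4 fell (2 without the 6 h library of run 5 or the 0 h library of run 6). Nop58 lost its call without the 6 h library of run 5 (0.18, adjusted p = 0.0565) or the 0 h library of run 7 (0.16, adjusted p = 0.0944). Of 10 host genes of small nucleolar RNAs 0 rose and 2 fell, Gas5 and Snhg1. The falls were 4 without the 6 h library of run 5 and 5 with the run as a block, but 1 without the 0 h library of run 5, where Gas5 lost its call (-0.37, adjusted p = 0.0589, in place of -0.59).

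The 12 largest rises among genes with a mean normalised count of at least 50 began with Pla2g7, Soga3, Spry4, Enox1 and Adam23, followed by Gbp4, Slc39a14, Myrf, Slc7a7, Phf19, Aire and Dab1. Pla2g7, a secreted phospholipase that inactivates platelet-activating factor, had 14.8, 15.0 and 17.7 CPM at 6 h, against 0, 0.10 and 0.06 CPM at 0 h. With 539 counts at 6 h and 2 at 0 h, its level at 6 h was 298 times that at 0 h (95% interval 82 to 2470, counting error only). Slc39a14, a zinc and iron carrier, had 139, 130 and 123 CPM at 6 h, against 4.30, 3.21 and 3.38 CPM at 0 h (5.17 ± 0.12, adjusted p = 4.09e-18). Slc7a7, an amino acid carrier subunit that is the largest rise among the 11 genes with a DR2, had 59.8, 70.5 and 68.4 CPM at 6 h, against 2.24, 1.90 and 3.02 CPM at 0 h (4.74 ± 0.13). In all 12 the libraries at 6 h were above those at 0 h. The fitted change was 9.82 for Soga3 and 7.91 for Enox1 without the 0 h library of run 6, and 7.12 and 6.45 without that of run 7, in place of 7.71 and 7.08. Tinagl1, the other named DR2 gene, rose by 1.14.

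The 12 largest falls were Gpld1, Rnf43, Fam19a4, Csf3r, Cdx2, Pdlim4, Khdc1c, Khdc1a, Htr5a, Sp5, Srarp and Clic6. At 6 h 8 of them had no count in the library of run 5, and their fitted changes depend on it. Gpld1, a phospholipase that cuts lipid anchors, had 3 counts at 6 h, against 415 at 0 h, and the level at 0 h was 125 times that at 6 h (95% interval 42.5 to 609, counting error only). Csf3r, the receptor of the granulocyte growth factor G-CSF, had 0, 0.44 and 1.17 CPM at 6 h, against 27.9, 19.7 and 19.3 CPM at 0 h (-5.53 ± 0.75, or -4.77 without the 6 h library of run 5). Htr5a, a serotonin receptor, had 1.76, 0.33 and 0.11 CPM at 6 h, against 21.2, 21.2 and 26.1 CPM at 0 h, and its change was -4.77, or -6.65 without that library. Clic6 fell by 3.83 ± 0.31. The other low values moved as well: without the 6 h library of run 5 the changes were -6.0 for Gpld1, -5.56 for Rnf43, -4.80 for Fam19a4, -4.69 for Cdx2, -4.51 for Pdlim4, -4.50 for Khdc1c and -4.04 for Khdc1a. Without that of run 6 they were -10.08 for Rnf43, -6.88 for Fam19a4, -6.70 for Pdlim4 and -6.21 for Khdc1c, and without that of run 7 they were -10.12 for Gpld1, -6.96 for Csf3r, -6.14 for Cdx2 and -5.39 for Khdc1a. Every one of these remained a called fall. Khdc1a and Khdc1c are near copies of each other, and reads may be split between them, so that their values are uncertain.

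Markers of other cell types moved in both directions. The 7 endoderm markers summed to 10.8 to 13.7 CPM at 6 h and 17.3 to 23.6 CPM at 0 h. Gata6, which drives the extraembryonic endoderm that appears later in this system, did not pass the test (-0.23 ± 0.29). Pax6, a neural factor gene, had 7.53, 6.41 and 3.29 CPM at 6 h, against 0.18, 0.20 and 0.47 CPM at 0 h (4.19 ± 0.37, or 4.89 without the 0 h library of run 7). Of the wider lists, 5 of 18 endoderm genes rose and 4 fell, and 4 of 8 neural genes rose and 3 fell. The mesoderm markers listed summed to 30 to 49.4 CPM at 6 h and 17.9 to 19.1 CPM at 0 h, of which Kdr, the VEGF receptor gene, made up most at 6 h (26.7, 42.6 and 40.8 CPM, against 6.72, 8.02 and 8.17 CPM at 0 h). Trophoblast markers summed to 4.58 to 11.2 CPM at 6 h, against 36.3 to 43.6 CPM at 0 h, most of it Cdx2, and the trophoblast regulator Gata2 fell by 3.74 ± 0.33. Fibroblast markers summed to 17.9 to 18.7 CPM at 6 h and 27.1 to 31.8 CPM at 0 h, with Dcn at 0 and 5 of the 8 under 1 CPM in all 6 libraries. Genes of the rare cells that resemble the 2-cell embryo were lower, with 8 of 11 tested falling and a median log2 change of -2.03, for example Sp110 with 0.88, 0.55 and 0.85 CPM at 6 h and 7.61, 4.61 and 4.74 CPM at 0 h. Fewer such cells and less RNA per cell cannot be told apart in these bulk samples, and the same holds for every marker here.

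Nuclear-retained RNAs were higher in the cytoplasmic libraries at 6 h: of 8 tested 4 rose and 0 fell, with a median log2 change of 0.41. Mirg rose by 0.68 ± 0.17. Malat1 rose by 0.45 ± 0.16, and lost its call without the 6 h library of run 6 (0.39, adjusted p = 0.0976) or run 7 (0.39, adjusted p = 0.096) or the 0 h library of run 5 (0.37, adjusted p = 0.12). Neat1 had 159, 104 and 94.5 CPM at 6 h, against 94.0, 77.4 and 83.2 CPM at 0 h, and lost its call without the 6 h library of run 5 (0.23, adjusted p = 0.362), as did Meg3 (0.18, adjusted p = 0.293). Both also lost their calls without the 0 h library of run 6 (adjusted p = 0.138 for Neat1 and 0.119 for Meg3) or run 7 (0.103 and 0.14). Of the list, 2 rose without any one of these 3 libraries. In nuclear RNA 0 of 9 of these genes passed the test, with a median of -0.17.

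The nuclear libraries of the same cultures gave a second reading of the same 6 h. There, 1165 of 11394 genes tested rose (10.2%) and 1191 fell (10.5%), 20.7% in all, with over 2-fold changes in 421 (3.69%) and 626 (5.49%), and the groups did not overlap for 41% of genes. Of 10829 genes tested in both fractions, 953 rose in both, which was 54.2% of those that rose in cytoplasmic RNA and 83.2% of those that rose in nuclear RNA. Likewise 983 fell in both (48.3% and 84.5%), and 0 were called in opposite directions. Across these genes, which share cultures and are not independent, Pearson's r of the changes was 0.841. Spry4 had 176, 167 and 187 CPM in nuclear RNA at 6 h, against 1.37, 1.15 and 0.47 CPM at 0 h. Sp5 had 16.8, 15.9 and 10.0 CPM in nuclear RNA at 6 h, against 221, 285 and 232 CPM at 0 h. The same lists moved in nuclear RNA, where 12 of 22 ERK feedback genes rose, 11 of 23 WNT genes fell, and 14 of 22 formative genes rose.

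Whether the change differed between the fractions was tested itself, as the cytoplasmic minus the nuclear log2 change. The fractions of one culture entered as separate libraries, with no term for the culture. Spread shared by the fractions of a culture was thus not removed. Of 11193 genes, 0 passed the test in edgeR (0%), 494 (4.41%) had an unadjusted p under 0.05, and DESeq2 called 2. The lowest adjusted p was 0.138, for Wdr4, with 52.8 CPM at 6 h and 53.3 CPM at 0 h in cytoplasmic RNA (means of 3), and 50.6 and 92.2 CPM in nuclear RNA, a difference of 0.85 ± 0.17. For Malat1 the difference was 0.91 ± 0.33 and for Cyp26a1 -0.96 ± 0.64, neither of which passed after adjustment. Single genes whose response differed between the fractions were thus not called by edgeR, which does not show that the responses were equal. The paper proposes, as one possibility, that much cytoplasmic RNA was left in its nuclear fraction. How far such mixing made the changes of the fractions alike, here and in the correlation above, was not tested.

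**Figure D3:**
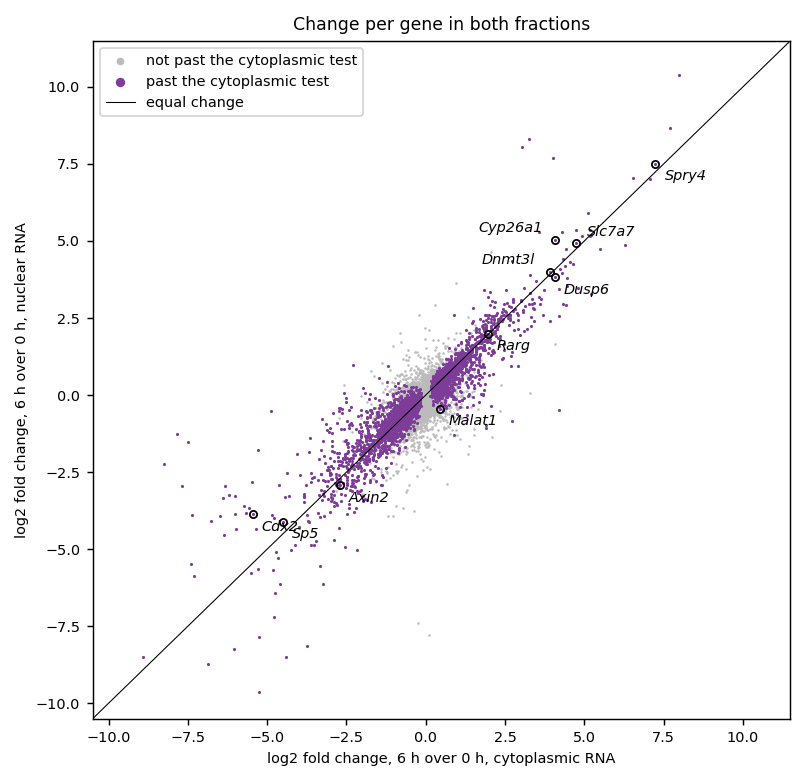
Log2 fold change of 6 h over 0 h per gene, in cytoplasmic RNA (horizontal) and nuclear RNA (vertical), for 10829 genes tested in both; purple points passed the cytoplasmic test, and the line marks equal change. Named genes such as Spry4, Rarg, Axin2 and Sp5 lie close to the line, and Malat1 lies below it (0.45 in cytoplasmic RNA and -0.44 in nuclear RNA, the nuclear value not past the test).

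Total RNA of other runs, read from single ends, gave a view without fractionation but with 1 library at 6 h and 2 at 0 h, so no test was made. The CPM of these libraries were scaled to the library total alone, without TMM factors. Spry4 had 111 CPM at 6 h, against 2.02 and 28.2 CPM at 0 h, and Sp5 had 2.97 CPM at 6 h, against 128 and 24.0 CPM at 0 h. The 0 h libraries thus differed widely from each other for these ERK and WNT genes, yet both were on the same side of the 6 h library. Cyp26a1 had 14.5 CPM at 6 h, against 0.33 and 0.27 CPM at 0 h.

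The later cytoplasmic libraries, which share the 0 h reference, show where the 6 h values stand in the course to 96 h. Pla2g7 averaged 0.05 CPM at 0 h, 15.9 CPM at 6 h, 1.89 CPM at 12 h and 9.96 CPM at 96 h. Bmp4 averaged 19.8, 100 and 57.9 CPM at these times and 5.19 CPM at 48 h. Both were highest at 6 h. Cyp26a1 averaged 11.2 CPM at 6 h, 96.2 CPM at 24 h and 514 CPM at 96 h, so that the 6 h level was a small part of the later one. Rarb averaged 16.2 CPM at 6 h and 103 CPM at 72 h, while Rarg was highest at 12 h with 427 CPM and had 25.7 CPM at 96 h. Sp5 averaged 0.28 CPM at 24 h, and Tpi1 was back at 448 CPM at 48 h.

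**Figure D4:**
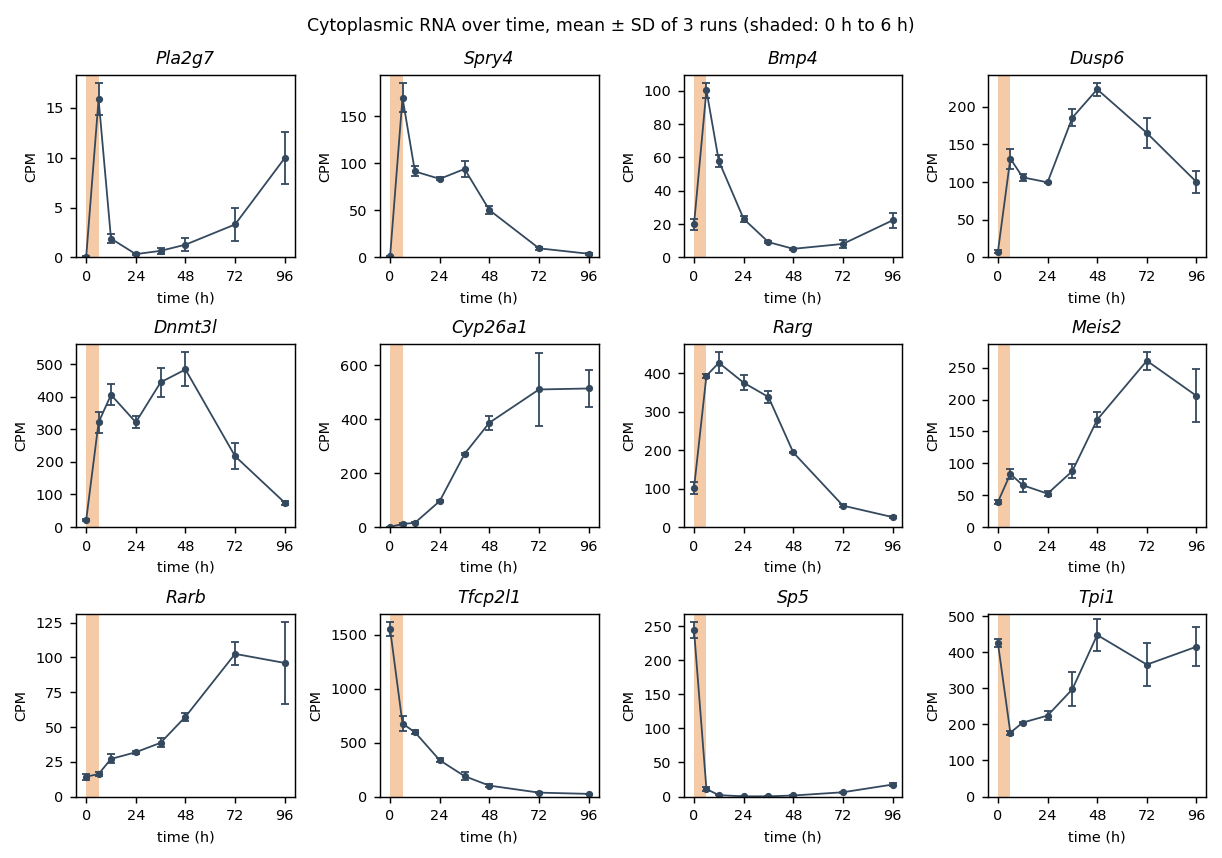
Mean level of 12 genes in cytoplasmic RNA over 0 to 96 h, in CPM on a linear axis from 0; error bars are the SD of 3 runs and the shaded band marks 0 to 6 h. Pla2g7, Spry4 and Bmp4 peak at 6 h, and Cyp26a1 and Rarb rise later.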

How the data were processed

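Per the labels and the study's methods, the authors trimmed reads (Trimmomatic 0.38), aligned them (STAR 2.6.1a, GRCm38, Ensembl 93) and summed them per gene with RSEM 1.3.1; the deposited expected counts and TPM list 39815 genes, none on chromosomes 7, 8, 9, X, Y or M, and the TPM of each library sum to 1000000 over the listed genes alone. Reads of unlisted genes may count under near copies. The total RNA libraries used Bowtie2 2.2.6 and RSEM 1.2.28. Expected counts were rounded and tested with edgeR 4.0.16 (R 4.3.3): quasi-likelihood test, TMM, all 24 cytoplasmic libraries with 1 group per time, a mean count over 10 in the 6 compared libraries, and Benjamini-Hochberg adjustment at 0.05. The nuclear fit and the test of the difference were alike. SE is the log2 fold change over the root of F. DESeq2 1.42.0, other scalings and filters, a fit of the 6 libraries alone, a block for the run and leaving out each library were the alternatives. The script was tested on simulated data. Runs pair the libraries by label; deviations of 6 h and 0 h libraries of a run correlated by 0.198, 0.0686 and 0.201. p-values measure the spread between runs of 1 cell line. Named were the 12 genes per direction with the largest change, a mean normalised count of at least 50 and 1 direction in 3 runs (1 and 3 predicted gene models passed over), and list members, the largest changes first, with each pathway's defining genes. The lists, genes and sequences were chosen with earlier results of these data known, so list counts carry no test. A few items were left out and are not reported here.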

Additional observations from a re-analysis of the deposited data

How the results depend on the processing

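Of 2611 pairs of a named gene and an alternative, 2507 kept direction and side of the threshold, 76 lost the call and 11 gained it. In 17 the direction changed, in each case for a gene that passed the test neither with all libraries nor in that alternative. Without the filter on low counts these were Ezh2 (-0.0045), Mdm2 (-0.0034) and Rxra (-0.0028). When 1 library was left out the changes ran over -0.13 to 0.17 for Stra8, -0.034 to 0.062 for Ezh2, -0.44 to 0.022 for Gata6, -0.014 to 0.035 for Mdm2, -0.19 to 0.19 for Rdh10, -1.95 to 0.87 for Rps29, -0.080 to 0.12 for Rxra, -0.022 to 0.23 for Rxrb and -0.016 to 0.12 for Txnip. With the replicate block, 1903 genes rose and 2260 fell in cytoplasmic RNA, and 1313 and 1379 in nuclear RNA. Among the named genes, the block changed the call of Sox2 and of no other, and it changed the counts given above beside their lists. With the 6 cytoplasmic libraries fitted alone, 1259 rose and 1227 fell. Jun (adjusted p = 0.288), Flrt3 (0.271) and Lefty2 (0.182) were among the named genes that lost their call there. The 6 nuclear libraries fitted alone gave more calls than the main nuclear fit, 1447 rises and 1316 falls in place of 1165 and 1191. Why the cytoplasmic counts were lower was not tested. Leaving out 1 library gave 1422 to 1701 rises and 1726 to 1960 falls. For the difference between fractions, DESeq2 called 2 genes with the higher change in cytoplasmic RNA, and leaving out a run gave 0 to 1 gene on the cytoplasmic side and 0 to 1 on the nuclear side, against 0 with all runs; the cause was not tested. Genes near 0 at either time had no stable fold, as the values without single libraries show. The counts of 37 of the 62 list results stayed within 1.5 times in every alternative.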
